A study of Rattus norvegicus with 2 samples.

Results

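A set of 10 genes whose proteins carry fatty acids into fat cells, bind and activate them there, and store or release them as triglyceride were followed in small mesenteric arteries of portal hypertensive and sham-operated rats. They are Lpl, Cd36, Fabp4, Fabp5, Fabp3, Acsl1, G0s2, Lipe, Dgat1 and Aqp7. They were chosen by name as lipid-handling genes of the fat that surrounds these vessels, with earlier results of these data known. All probe sets whose only gene symbol in the platform annotation was one of these were taken, which gave 17 probe sets for 10 genes, of 4736 genes named by a single symbol on the array. RNA came from first- and second-order branches of the rat mesenteric artery, the muscular vessels that set blood supply to the intestine. In the portal hypertension group the portal vein had been partly tied before it enters the liver, a prehepatic model that raises pressure in the veins draining the gut, and the sham group had a control operation without it. Each group was 1 pool of total RNA from 20 rats, hybridised to 1 RG_U34A array, an Affymetrix rat design. The labels state no strain, age, sex or time between operation and sampling.

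Fatty acids reach fat cells mostly from triglyceride-rich lipoproteins, from which lipoprotein lipase cuts them at the capillary wall, and they cross the cell membrane with the help of CD36. Inside the cell, fatty acid binding proteins carry them through the water phase, acyl-CoA synthetases activate them, and acyltransferases attach them to glycerol as triglyceride in lipid droplets. Lipases release them again, under brakes such as G0S2, and the freed glycerol leaves through an aquaporin. Mesenteric arteries lie in fat, and lipid-laden perivascular adipocytes are their neighbours in the tissue.

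Every value compares 1 pool with 1 pool, so no test could be made and precision is limited by the number of arrays. Signals are the deposited linear intensities. Ratios are log2 of portal hypertension over sham after signals below a floor of 330.9 units, the 40th percentile of both arrays, had been raised to it. A probe set above the floor in both pools is called measured, and the value of a gene is the median over its probe sets above the floor in at least 1 pool. A difference of 1.5-fold, 0.58 on the log2 scale, served as the threshold. Where a gene had several measured probe sets, their log2 ratios spread about their mean with an SD of 0.30 (789 genes with 1801 probe sets), which leaves out all differences between rats. For the tissue label, 8 of 8 smooth muscle marker genes were above the floor, but 3351 of all 4736 genes were in at least 1 pool. The summed signal of these 8 was 684923 units in the portal hypertension pool and 687926 units in the sham pool. Of them, 3 had a log2 ratio above 0 and 5 below, with a median of -0.09. Acta2 had -0.32, Des -0.28 and Cald1 -0.21. Tagln, a smooth muscle actin-binding protein, had 0.17. Its brighter probe set gave 115007 units in the portal hypertension pool and 102656 units in the sham pool. The arrays were hybridised with noted amounts of 12.5 µg of labelled cRNA for the portal hypertension pool and 17 µg for the sham pool, both marked as uncertain, and went through fluidics modules 1 and 2. Amount, module and operation cannot be told apart. As a measure of RNA quality, control signals at the 3′ end of a transcript were divided by those at its 5′ end. For beta-actin this gave 1.79 in the portal hypertension pool and 2.05 in the sham pool, and for GAPDH 1.85 and 1.83. The part of RNA quality in the ratios was not tested. The log2 ratio of the 9 spike-in control probe sets averaged 0.28, with an SD of 0.28 and a range of -0.07 to 0.88.

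Most of the lipid genes had more signal in the portal hypertension pool, and the size of the difference was unequal among them. Acsl1, which activates long-chain fatty acids, G0s2, the brake on triglyceride breakdown, and Fabp5, a fatty acid binding protein, were at least 1.5-fold higher. Fabp4, the fatty acid binding protein of fat cells, was 1.43-fold higher, and Aqp7, Lpl, Cd36 and Lipe were between 1.18-fold and 1.27-fold higher. Dgat1 at 1.05-fold and Fabp3 at 0.927-fold differed little. Of the 10 genes, 9 had a ratio above 1, where 46.8% of all 3351 genes with a value did. The median log2 ratio was 0.34 over the 10 genes and -0.02 over all genes. Because the 10 genes were chosen with earlier results of these data known, these contrasts are descriptions and no independent support. At the 1.5-fold threshold 3 genes were higher, against a background of 3.13% of all genes, and 0 were lower, against 5.04%. At 2-fold 0 genes were higher, against 0.328% of all genes.

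**Figure D1:**
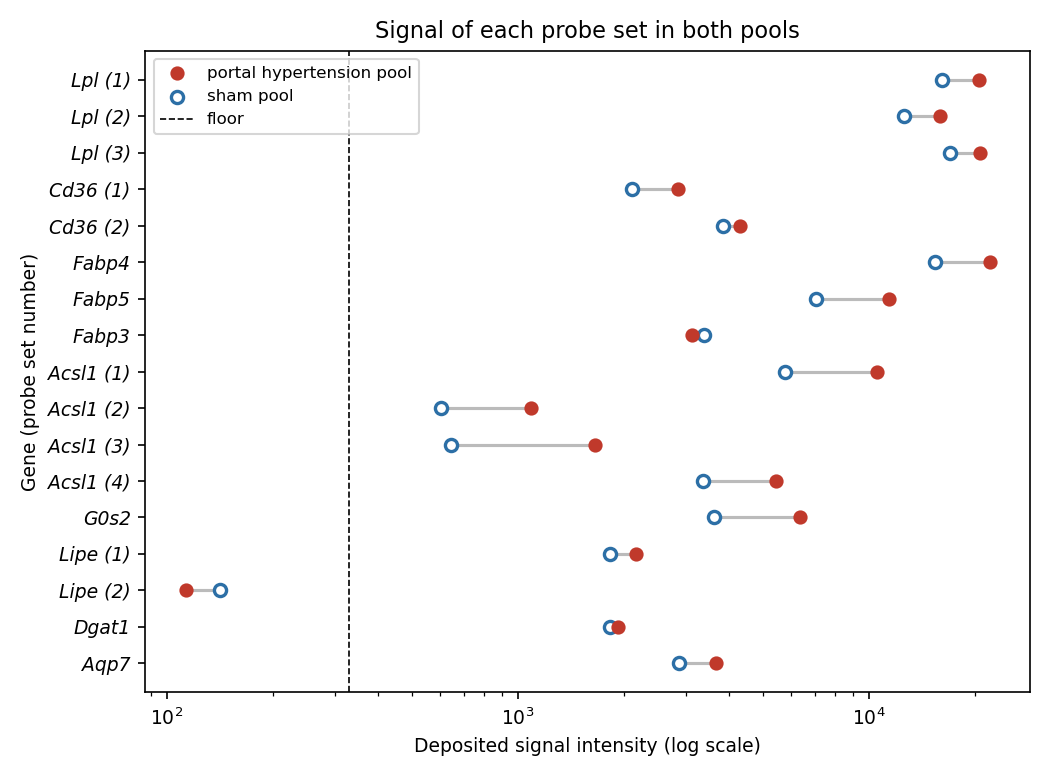
Deposited signal intensity (horizontal log axis) of each of the 17 probe sets of the 10 lipid genes (rows, with probe sets of a gene numbered), with filled points for the portal hypertension pool and open points for the sham pool, 1 array each, and the floor of 330.9 as a dashed line. The portal hypertension point lies to the right of the sham point for 15 of the 16 measured probe sets, the exception being Fabp3, and the second Lipe probe set lies below the floor in both pools.

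By probe set, 16 of 17 were measured, or 94.1%, where 56.8% of all 8740 probe sets other than controls were. Of the 16 measured probe sets, 15 had a ratio above 1, against 46.9% of all 4960 measured probe sets. At least 1.5-fold higher were 6, against 3.1% of all measured probe sets, and they belonged to Acsl1, G0s2 and Fabp5. At least 2-fold higher was 1, an Acsl1 probe set, against 0.444%. Because 4 of the 6 belonged to Acsl1 alone, these counts are not counts of independent genes. Only 4 of the 10 genes had more than 1 probe set, and the other 6 rest on a single one.

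The uptake step was represented by Lpl and Cd36, and both were moderately higher in the portal hypertension pool. Lpl, the lipoprotein lipase gene, had signals of 20513, 15888 and 20739 units on its 3 probe sets in the portal hypertension pool, against 16180, 12584 and 17029 units in the sham pool. All 3 probe sets were higher, with log2 ratios of 0.34, 0.34 and 0.28 that spanned only 0.06, although the first pair was designed from the same sequence entry and is not independent. Across the genes of the array with several measured probe sets, 57.2% (451 of 789) had all of them on one side of 1. Lpl ranked 332 from the top among 3050 genes measured on both arrays, so 10.9% of genes had a higher ratio.

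Cd36, the membrane receptor that helps long-chain fatty acids enter the cell, had 2847 and 4278 units on its 2 probe sets in the portal hypertension pool, against 2113 and 3826 units in the sham pool. Both were higher, with log2 ratios of 0.43 and 0.16. The gap of 0.27 between these, which come from one sequence entry, was nearly as large as their median of 0.30. Another 5 probe sets carried the symbols of both Cd36 and its neighbour Cd36l1 and were left out by the rule.

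The 3 fatty acid binding protein genes did not share a size of change. Fabp4, known as the adipocyte form and also made by macrophages and capillary endothelium, had 22032 units in the portal hypertension pool and 15433 units in the sham pool, a log2 ratio of 0.51. Fabp5, the epidermal form, which fat cells and macrophages also make, had 11410 units in the portal hypertension pool and 7041 units in the sham pool, a log2 ratio of 0.70. Its rank was 101 among 4960 measured probe sets. Fabp3, the form of heart and skeletal muscle, had 3136 units in the portal hypertension pool and 3384 units in the sham pool, a log2 ratio of -0.11. Fabp3 was thus the only one of the 10 genes with less signal in the portal hypertension pool, by less than the scatter between probe sets of a gene. Each of these values rests on 1 probe set, and the suffix of the Fabp5 probe set marks it as one that may match more than one transcript.

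Acsl1, the long-chain acyl-CoA synthetase gene that commits fatty acids to esterification or oxidation, had the highest ratio of the 10 genes. Its 4 probe sets read 10539, 1089, 1659 and 5436 units in the portal hypertension pool, against 5777, 604.3, 643 and 3361 units in the sham pool. Every one was at least 1.5-fold higher, with folds of 1.82, 1.80, 2.58 and 1.62, and they ranked 50, 57, 6 and 106 among 4960 measured probe sets. The largest came from a dim probe set that shares its sequence entry with the dimmest one, and without it the median log2 ratio was 0.85, compared with 0.86 over all 4. As a gene Acsl1 ranked 24 among 3050 measured genes.

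**Figure D2:**
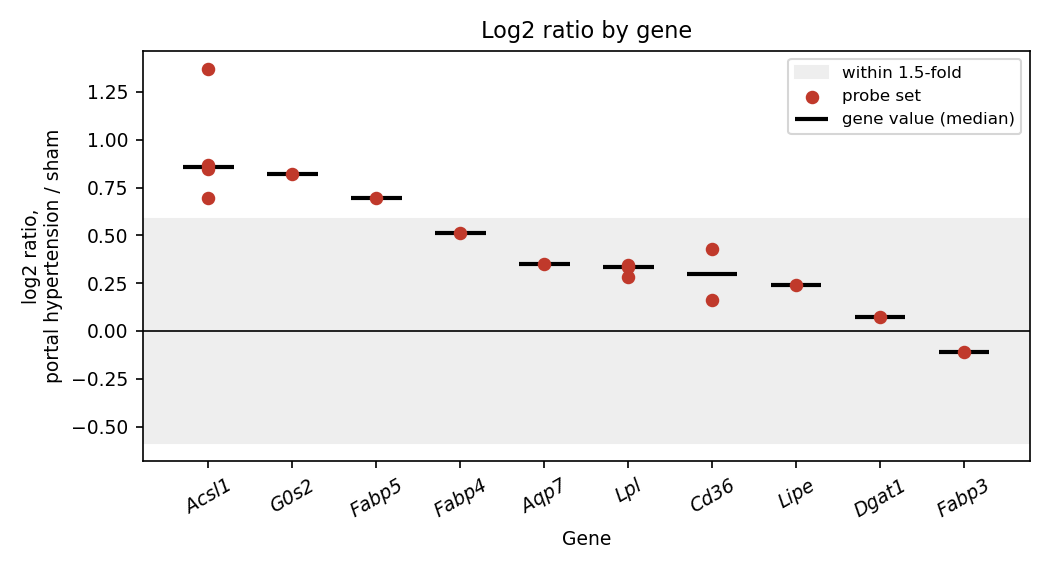
Log2 ratio of portal hypertension over sham (vertical axis) for the 10 lipid genes in order of their gene value, with a point for each measured probe set, a bar for the gene value and a grey band for differences within 1.5-fold. All 4 Acsl1 probe sets, from 0.69 to 1.37, lie above the band with G0s2 at 0.82 and Fabp5 at 0.70, and Fabp3 at -0.11 is the only gene below 0.

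Storage and release were represented by Dgat1, Lipe, G0s2 and Aqp7. Dgat1, which adds the last fatty acid to make triglyceride, had 1920 units in the portal hypertension pool and 1828 units in the sham pool, a log2 ratio of 0.07 that lies well within the scatter between probe sets. G0s2, whose protein binds and inhibits the adipose triglyceride lipase, had 6371 units in the portal hypertension pool and 3611 units in the sham pool. Its log2 ratio of 0.82 ranked 26 among 3050 genes.

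Lipe encodes hormone-sensitive lipase, the enzyme that acts on diacylglycerol during fat breakdown. On its measured probe set it had 2164 units in the portal hypertension pool and 1831 units in the sham pool, a log2 ratio of 0.24. The other probe set gave 112.9 units in the portal hypertension pool and 141.8 units in the sham pool, below the floor in both, so it adds no ratio. With the floor removed or set at the 20th percentile this dim probe set enters and the gene value turns to -0.04. Aqp7, the glycerol channel of fat cells, had 3667 units in the portal hypertension pool and 2881 units in the sham pool, a log2 ratio of 0.35 from 1 probe set. The genes of release thus spanned 0.24 to 0.82, with the inhibitor G0s2 at the top and the lipase Lipe at the bottom.

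**Figure D3:**
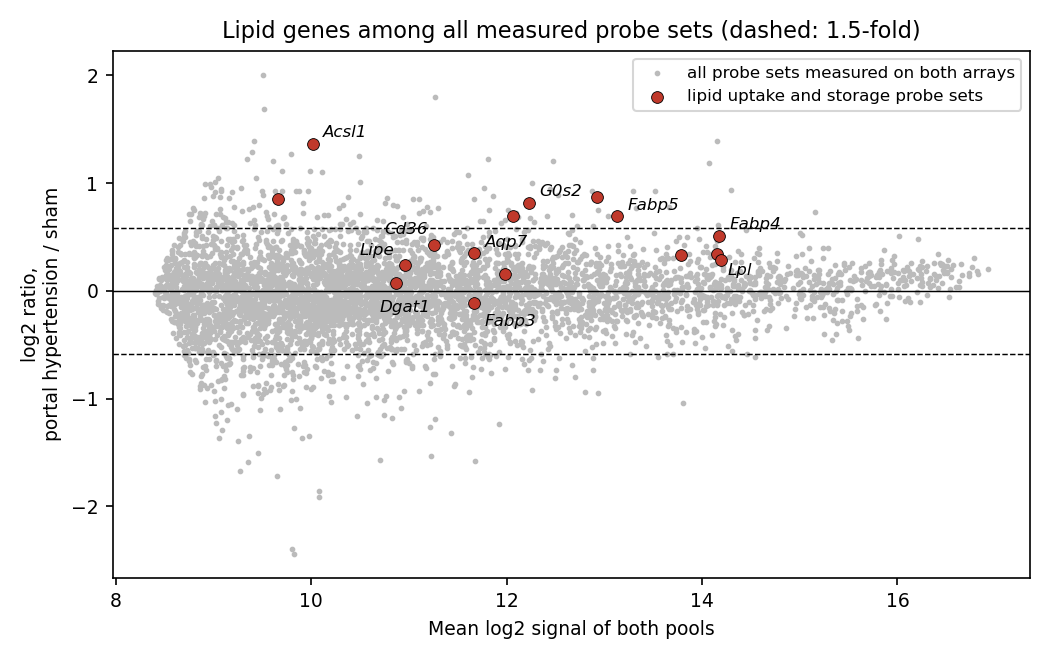
Log2 ratio of portal hypertension over sham (vertical axis) against the mean log2 signal of both pools (horizontal axis) for all 4960 probe sets measured on both arrays (grey) and the 16 measured probe sets of the lipid genes (red, each gene named once), with dashed lines at 1.5-fold. Acsl1, G0s2 and Fabp5 points lie above the upper dashed line, and the Lpl and Fabp4 points lie at the right, where the grey cloud is narrower.

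The scatter between probe sets of a gene narrowed with the signal, so the same ratio carries a different weight at different levels. The SD was 0.36 for genes with mean signals from 421.5 to 1332 units, 0.29 for those from 1341 to 3739 units and 0.23 for those from 3757 to 101965 units. Measured by 2 SD at its own level, a yardstick chosen after the values were seen, 4 of the 10 genes were higher, Fabp4 in addition to Acsl1, G0s2 and Fabp5, and 2.36% of all measured genes were. Lpl, with a limit of 0.47, and Cd36, Aqp7, Lipe, Dgat1 and Fabp3, with a limit of 0.58, lay inside it.

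The sequence just upstream of the transcription start is shown for the 4 of these genes matched by symbol in a table of RefSeq promoters of build GRCr8, to set the letters beside the ratios of Acsl1, G0s2, Cd36 and Fabp3. Each line gives the 250 bases before the start, 5′ to 3′ on the strand of the gene, in lower case, and capitals mark motifs found on either strand. The motifs searched were the TATA box with the letters TATAAA, the box CCAAT, the GC box with the letters GGGCGG, the core site AGGTCA of many nuclear receptors, and the E-box CACGTG bound by clock factors. The direct repeat bound by PPAR with RXR, which is that core site repeated after a gap of 1 base and so overlaps it, was searched too. The first lies at chr16:52532393-52532642 on the minus strand, the second at chr13:107335949-107336198 on the minus strand, the third at chr4:18246332-18246581 on the plus strand and the last at chr5:147935875-147936124 on the plus strand.
Acsl1: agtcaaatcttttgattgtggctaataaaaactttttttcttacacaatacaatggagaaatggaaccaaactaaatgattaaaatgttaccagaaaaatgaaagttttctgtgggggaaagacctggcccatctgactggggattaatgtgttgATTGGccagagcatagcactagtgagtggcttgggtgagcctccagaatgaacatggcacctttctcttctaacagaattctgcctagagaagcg
G0s2: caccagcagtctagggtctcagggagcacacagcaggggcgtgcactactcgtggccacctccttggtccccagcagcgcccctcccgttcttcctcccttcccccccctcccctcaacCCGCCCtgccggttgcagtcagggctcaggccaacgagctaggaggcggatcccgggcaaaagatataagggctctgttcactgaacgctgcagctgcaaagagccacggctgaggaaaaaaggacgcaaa
Cd36: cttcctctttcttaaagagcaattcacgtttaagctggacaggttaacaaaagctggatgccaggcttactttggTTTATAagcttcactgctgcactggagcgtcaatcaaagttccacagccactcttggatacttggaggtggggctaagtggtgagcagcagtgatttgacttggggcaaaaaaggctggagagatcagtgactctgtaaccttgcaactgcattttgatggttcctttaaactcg
Fabp3: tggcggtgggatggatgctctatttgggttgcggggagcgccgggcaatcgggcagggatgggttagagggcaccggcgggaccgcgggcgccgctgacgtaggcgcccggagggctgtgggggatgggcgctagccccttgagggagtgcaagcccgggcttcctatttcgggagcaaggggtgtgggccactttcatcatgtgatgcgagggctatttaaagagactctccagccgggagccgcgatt

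The matches were few and differed from gene to gene. Acsl1 held a CCAAT box on the opposite strand at bases -95 to -91 from the start, a motif found in 34% of all 33469 promoter windows of this length. G0s2 held a GC box on the opposite strand at bases -131 to -126, and 30.5% of all windows held one. In Cd36 a TATAAA match lay on the opposite strand at bases -175 to -170, and 12.9% of all windows had such a match. Fabp3 held none of the 6 motifs. AGGTCA, in 14.1% of all windows, CACGTG, in 5.59%, and the direct repeat, in 0.0508%, were in none of these 4 windows. GC content was 40% for Acsl1, 62.8% for G0s2, 45.6% for Cd36 and 65.6% for Fabp3, where the median of all windows was 51.2%. A match or its lack describes these letters only and says nothing about binding.

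Other genes of the same pathway, in 6 lists without the 10 genes above, did not share their shift. These lists too were chosen with earlier results of these data known, so the contrast is a description and no test. Of 56 genes on the array 39 had a value, of which 17 lay above 0 and 22 below, with a median log2 ratio of -0.02. At the 1.5-fold threshold 3 of the 39 were higher and 1 was lower, where 3.13% and 5.04% of all genes were. The 3 higher genes were Plin2, Nr1h3 and Slc27a2, and the lower gene was Stat5a.

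Among genes of the lipid droplet and of lipolysis, members went both ways and 1 was past 1.5-fold. Plin2, which encodes a coat protein of lipid droplets in many cell types, had 9289 units in the portal hypertension pool and 6122 units in the sham pool, a log2 ratio of 0.60, and its other probe set was below the floor in both pools. Cidea, a droplet protein that promotes droplet fusion, had 5351 units in the portal hypertension pool and 3604 units in the sham pool, a log2 ratio of 0.57. Prkar2b, a regulatory subunit of the protein kinase that triggers lipolysis, had -0.53, and Ces1d, a carboxylesterase able to split triglyceride, had -0.49. Over this list 2 of 9 genes were above 0 and 7 below, with a median of -0.18. Plin1, the perilipin of fat cells, and Mgll, the monoglyceride lipase gene, were below the floor in both pools.

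The relatives of the 10 genes went separate ways too. The synthetases Acsl3 and Acsl5 had log2 ratios of -0.01 and -0.06, and the measured probe sets of Acsl4 gave -0.05 and 0.05, so the higher signal of Acsl1 was not shared by these 3 genes. Acsl6, another synthetase, was below the floor in both pools. Dbi, the acyl-CoA binding protein gene, had 20778 units in the portal hypertension pool and 15552 units in the sham pool, a log2 ratio of 0.42. The fatty acid transporter Slc27a1 had 0.12, and Got2, also described as a fatty acid binding protein of the plasma membrane, had -0.14. Fabp6, the ileal form, had 10789 units in the portal hypertension pool and 12863 units in the sham pool, a log2 ratio of -0.25. Its other probe set was below the floor in both pools. Slc27a2, another transporter and acyl-CoA synthetase, was above the floor in the portal hypertension pool only, with 503.7 units against 247.2 units in the sham pool, which makes it at least 1.52-fold higher. Fabp1, Fabp2 and Fabp7, the liver, intestinal and brain forms, were below the floor in both pools.

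Receptors and glycerol genes had few large ratios. Scarb1, a lipoprotein receptor related to Cd36, had log2 ratios of 0.67, 0.51 and -0.16 on its 3 probe sets. Vldlr, a receptor that takes part in triglyceride uptake, had -0.15, Lrpap1, a chaperone of such receptors, -0.09 and Lrp2, another receptor of that family, 0.06 on its measured probe set. Aqp9, a glycerol channel of the liver and of leukocytes, had 832.7 units in the portal hypertension pool and 599 units in the sham pool, a log2 ratio of 0.48. The lipid phosphatases Plpp3 and Plpp1 had 0.31 and -0.11, and Soat1, which esterifies cholesterol, had 0.04. Gpd1 and Gpam, which supply and first acylate the glycerol backbone, were below the floor in both pools, as was Pck1, an enzyme of glycerol formation in fat.

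Among transcription factors that control adipocyte lipid genes, Pparg, the master regulator of fat cell formation, had 2062 units in the portal hypertension pool and 1401 units in the sham pool, a log2 ratio of 0.56. Nr1h3, the oxysterol receptor LXR alpha, had 1062 units in the portal hypertension pool and 690.8 units in the sham pool, a log2 ratio of 0.62. Foxo1, a factor restrained by insulin, had 0.49 and Stat5b -0.41. Stat5a was above the floor in the sham pool only, with 284 units in the portal hypertension pool against 569.1 units in the sham pool, at least 1.72-fold lower. The median of the 12 factors with a value was 0.05, and Cebpa and Srebf1 were below the floor in both pools.

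**Figure D4:**
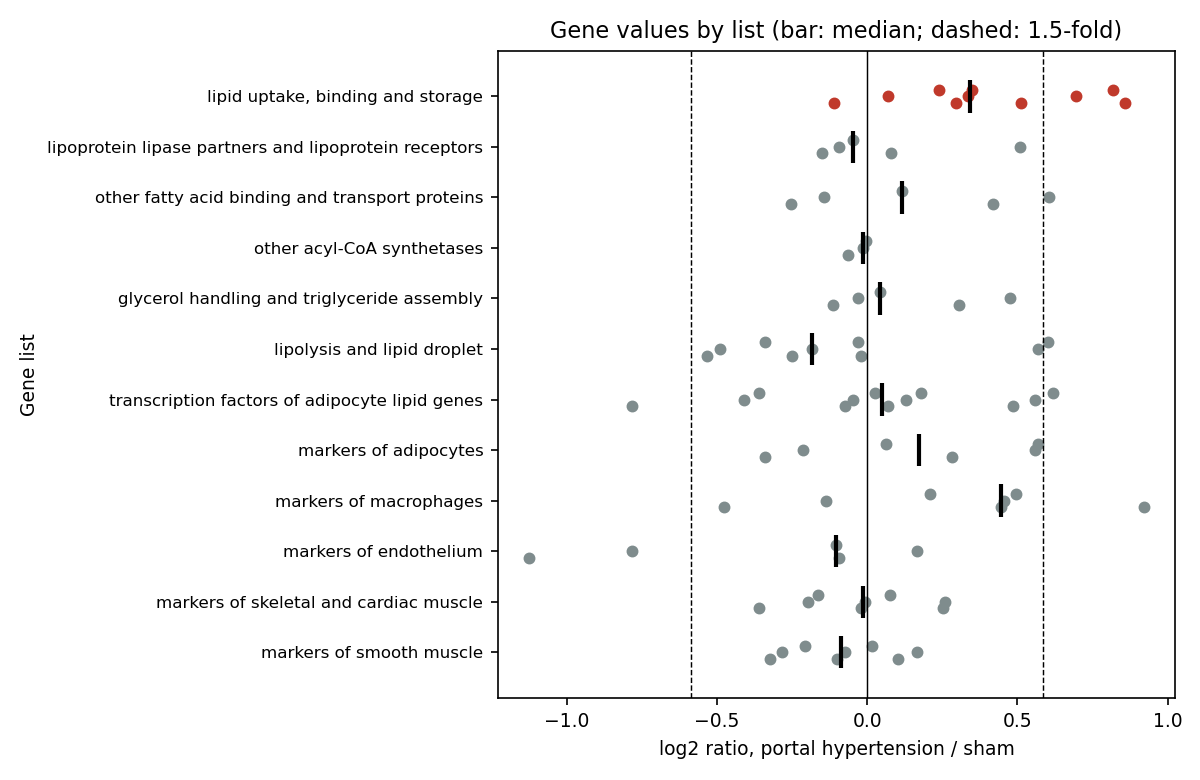
Log2 ratio of portal hypertension over sham (horizontal axis) of every gene with a value in the lipid gene set (top row, red), 6 lists of other genes of the pathway and 5 lists of cell type markers (rows, grey), with a bar at each median and dashed lines at 1.5-fold. The lipid genes have a median of 0.34, and the pathway lists have medians from -0.18 to 0.12. Marker medians are 0.17 for adipocytes, 0.45 for macrophages, -0.10 for endothelium, -0.01 for skeletal and cardiac muscle and -0.09 for smooth muscle.

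Cells other than muscle contribute to these pools, and markers of those known to make the 10 proteins are given here. In RNA of a whole vessel, more cells of a type and more RNA per cell cannot be told apart. Summed signals here cover all probe sets of a list's genes on the array, those below the floor included. Of 9 adipocyte markers on the array that are not among the 10 genes, 6 had a value, 4 above 0 and 2 below, with a median of 0.17 and a summed signal of 40567 units in the portal hypertension pool and 37723 units in the sham pool. They were Cidea, Pparg, Cfd at 0.28, Slc2a4, whose probe sets gave -0.45 and 0.57, Lep at -0.21 with probe sets from -0.55 to 0.22, and Adrb3 at -0.34, while Plin1, Cebpa and Ucp1 were below the floor in both pools. Macrophage markers had 5 of 7 genes above 0, a median of 0.45, and sums of 66587 units in the portal hypertension pool and 53966 units in the sham pool, with Fcgr2b at 0.92, Ctss at 0.50, Aif1 at 0.46 and Ptprc at -0.48 with probe sets from -0.63 to 0.995, and with Csf1r and Itgam below the floor. Endothelial markers had 1 of 5 above 0, a median of -0.10 and sums of 11024 and 12653 units in the portal hypertension and sham pools, with Icam2 at -1.13 and Nos3 at -0.78 with measured probe sets from -1.20 to 0.25, and with Vwf, Kdr and Sele below the floor. Markers of skeletal and cardiac muscle, which make Fabp3, had 3 of 8 above 0 and a median of -0.01. Their sums were 10901 units in the portal hypertension pool and 11020 units in the sham pool. Of the 13 on the array, Myh7, Actc1, Myh2, Tnni2 and Myl3 were below the floor. The brightest with a value were Myh1, Acta1 and Ckm. They had 4155, 2182.5 and 1582 units in the portal hypertension pool, against 4209, 2503.5 and 1328 units in the sham pool. Of the 2 brown fat genes with a value, 1 lay above 0 and 1 below. Cidea, given above, was the higher one, and Cox8b was above the floor in the sham pool only, at 236.2 units in the portal hypertension pool against 500.3 units in the sham pool, at least 1.51-fold lower, and Ucp1 and Dio2 were below it in both. Most markers of intestinal epithelium (5 of 7) and some of hepatocytes (3 of 8) were below the floor, where 1385 of all 4736 genes were. Of those with a value, 1 of 2 intestinal and 3 of 5 hepatocyte markers lay above 0. The 2 intestinal ones were Slc5a1 at -0.23 and Anpep at 0.13. On their brightest probe sets they had 1197 and 1320 units in the portal hypertension pool, against 1261 and 1209 units in the sham pool. Fabp6, the ileal form given above, was not among these markers. Summed signals of the intestinal and hepatocyte lists were 4540 and 4656 units in the portal hypertension pool, against 4290 and 4758 units in the sham pool. The part of any of these cell types in the ratios of the lipid genes was not tested.

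How far above 0 the ratios lie depends on the scaling. When the spike-in mean was set to 0, the median of all genes moved to -0.29 and that of the 10 genes to 0.06. Lipe and Dgat1 turned to -0.04 and -0.21. Of the 10 genes 0 reached 1.5-fold, where 0.951% of all genes did. Acsl1, at 0.578, fell just short of the threshold of 0.585, and G0s2 had 0.54. Relative to all genes, the median of the 10 genes was 0.35 higher with this scaling and 0.37 higher as deposited. This scaling moves every ratio by the same amount apart from the floor, so that difference could hardly change and is no check on it.

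**Figure D5:**
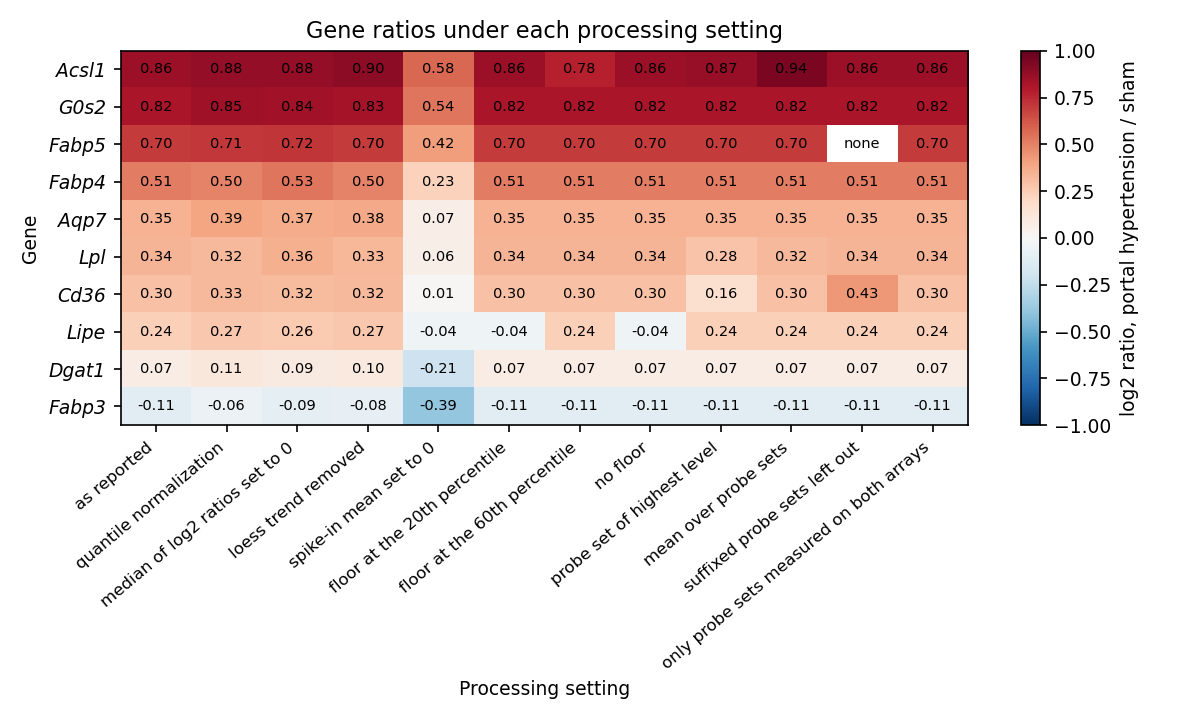
Log2 ratio of portal hypertension over sham (colour and printed value) for the 10 lipid genes (rows) as reported and under 11 other processing settings (columns). Acsl1 and G0s2 stay the highest pair in each column, from 0.58 to 0.94 and from 0.54 to 0.85, the column with the spike-in mean set to 0 is lower throughout, and Fabp5 has no value once probe sets with a suffix are left out.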

How the data were processed

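Total RNA from small mesenteric arteries of 20 rats per group was isolated with TRIzol and an RNeasy cleanup, per the labels. The authors deposited a linear intensity for each probe set on each array. Their software, background correction and target of scaling are not given in the sources used. The mean after leaving out the lowest and highest 2% was 2504.38 in the portal hypertension pool and 2504.33 in the sham pool, so the intensities were taken as already scaled to a common level. Control probe sets were set apart, which left 8740 of 8799.

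Symbols came from the platform annotation (7006 probe sets with 1 symbol, 308 with several, 1426 with none), and lookup in RefSeq GRCr8 changed 0 of them. Of 4736 genes, 3351 had a value and 3050 were measured on both arrays. There were no replicates, hence no test. The calculation was checked on simulated data (Python 3.11.15, pandas 2.3.3, statsmodels 0.14.6 for the loess).

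The 10 genes and the other lists were chosen with earlier results of these data known. Named were all 10 genes, and from each other list up to 4 measured genes with the largest ratios in either direction, every gene past 1.5-fold, and all adipocyte markers with a value. This was not followed throughout. For endothelium only the genes past 1.5-fold were named. For skeletal and cardiac muscle the brightest genes with a value were named, and for hepatocytes none. Genes named as below the floor, and Acsl4, whose probe sets straddle 0, were picked after their values were seen. Alternatives were other scalings, floors, summaries over probe sets, and fold thresholds.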

Additional observations from a re-analysis of the deposited data

How the results depend on the processing

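The direction of Acsl1, G0s2, Fabp5, Fabp4, Aqp7, Lpl, Cd36 and Fabp3 was kept under every one of 11 planned settings that gave a value (10 for Fabp5, which has none once probe sets with a suffix are left out), while Lipe and Dgat1 turned as given above. Fabp4, Fabp5, G0s2, Aqp7 and Fabp3 each rest on 1 probe set above every floor tried, so only the scalings could change their values. The other settings are no check on these genes. The median of the 10 genes stayed between 0.32 and 0.36 under 10 settings and was 0.06 with the spike-in mean set to 0. The number of the 10 genes at least 1.5-fold higher was 3 as reported (3.13% of all genes). It was 0 with the spike-in scaling (0.951%), 0 at 2-fold (0.328%) and 2 of 9 without suffixed probe sets (3.23%). Beyond 2 SD at their level, a yardstick chosen after seeing the data, were 4, against 2.36% of all measured genes. The 6 probe sets at least 1.5-fold higher became 2 with the spike-in scaling, 3 without suffixed ones and 1 at 2-fold. The share of all measured probe sets was 3.1% as reported and 0.444% at 2-fold, and was not computed under the other settings. Other pathway genes higher, 3 of 39 as reported (3.13% of all genes), were 5 of 39 after quantile normalization (4.53%), 6 of 52 with the floor at the 20th percentile (7.15% of all genes), 1 of 29 with it at the 60th (1.94%), 7 of 56 with no floor (9.61%), 0 of 38 with the spike-in scaling (0.951%) and 0 of 39 at 2-fold (0.328%), so the genes with a value and the background moved too. Lower, 1 of 39 as reported (5.04% of all genes), were 6 of 38 with the spike-in scaling, 3 of 56 with no floor, 2 of 39 with the brightest probe set, 0 of 39 at 2-fold and 0 of 36 with only measured probe sets. The share of all genes lower was not computed under these settings, and the spike-in scaling moved the median of all genes to -0.29. These counts therefore show nothing particular to the pathway genes. The median of the lipolysis and droplet list turned to 0.16 without suffixed probe sets, which left 4 genes. The signs of the medians of the other 5 pathway lists also turned under 1 to 4 settings each. The causes were not tested beyond the change of setting itself. No paired analysis was possible because each group has 1 array. Low signal limits Lipe and the dim Acsl1 probe sets, and the number of arrays limits all values.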

Other observations

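The 5 probe sets annotated to both Cd36 and Cd36l1 were bright in both pools, with signals from 11380 to 27661 units in the portal hypertension pool and from 8541 to 21839 units in the sham pool. Their log2 ratios ran from -0.05 to 0.41 with a median of 0.30, and 4 of 5 were above 0. The signal cannot be assigned to either gene, so it enters no count.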
